A study of Mus musculus with 18 samples.

Results

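This account describes 38 genes of endoplasmic reticulum (ER) stress and of the amino acid response in mouse bone marrow derived macrophages treated with dexamethasone. The genes were taken by symbol, as probe sets annotated to that 1 symbol alone, and each gene was read from its brightest probe set. A value was available for 37 of the 38, out of 17020 named genes, and all 37 were among the 13190 genes tested. The remaining gene, Mthfd2, a mitochondrial one-carbon enzyme, had its probe sets annotated together with a second symbol and has no value here. By role there were 13 ER folding genes, 4 genes of ER-associated degradation, 4 sensors and transcription factors of the unfolded protein response, 6 genes for Atf4 and stress regulators that act with or after it, and 11 amino acid genes of the Atf4 type, of which 10 were measured.

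The treated groups were macrophages kept with the synthetic glucocorticoid dexamethasone at 100 nM for 1, 2, 4, 10 or 24 h, and they were compared with untreated macrophages taken at baseline. All 6 groups were of the same C57BL/6 cells, from the marrow of 3 male mice aged 10 weeks, grown for 1 week with 10000 U/ml of recombinant human CSF1, the growth factor that drives macrophage differentiation, in medium holding 10% fetal calf serum, and replated under those conditions. Every group had 3 arrays, which makes 18, and the series design names them biological replicates. The labels do not say which mouse gave which array or whether the marrow was pooled, so the p-values measure the spread between these arrays. No untreated group was taken at the later times, so time in culture after replating cannot be told apart from time in dexamethasone.

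The unfolded protein response is run from the ER membrane by 3 sensors. Ern1 (IRE1) splices the mRNA of the transcription factor Xbp1, Atf6 is cut to release a transcription factor, and Eif2ak3 (PERK) phosphorylates eIF2alpha. Xbp1 and Atf6 drive genes of folding and degradation through the ER stress response element. Phosphorylated eIF2alpha favours translation of Atf4, and the kinase Eif2ak4 (GCN2) does the same when amino acids are short, so Atf4 targets for amino acid synthesis, transport and tRNA charging can respond with or without ER stress. Atf4 binds the C/EBP-ATF element. Macrophages are secretory cells, and Ern1 and Xbp1 are known to take part in their cytokine responses.

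Promoter sequences show which of these elements the genes carry. RefSeq promoters on GRCm38.p6, from 250 bases before to 50 bases after the start of the gene, were found for 33 of the 38 genes and searched on both strands. None was found for Manf, Atf6, Nars, Wars and Slc7a5, so these were not searched. The ER stress response element, searched as CCAAT followed by CCACG after any 9 bases, stood in 7 of 12 ER folding genes (Hspa5, Hsp90b1, Pdia6, Calr, Canx, Dnajc3 and Creld2) and in Syvn1, against 0.119% of all 32851 promoters. Its second form, ATTGG followed by CCACG after any 1 base, stood in Herpud1 and Dnajb11, against 0.0365% of all promoters. The C/EBP-ATF element, TGATGNAA, stood in 2 of 8 amino acid genes (Asns and Aars), 2 of 6 stress regulators (Chac1 and Trib3) and Herpud1, against 3.97%. Herpud1 was the 1 promoter in the table that held both the second ER element and the C/EBP-ATF element. The pair of half-sites ACANNNTGT, a form bound by the glucocorticoid receptor, stood in 0 of the 33 windows, against 6.85% of all promoters. These are letter matches in a short window and do not show that a factor binds.

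The 200 bases before the start are printed for 7 genes described further on, 3 with the ER element, 3 with the C/EBP-ATF element and Herpud1 with both kinds. Each runs 5′ to 3′ on the strand of its gene, and capitals mark the fixed letters of the element. Where the C/EBP-ATF element lies on the opposite strand it is seen as its reverse complement. Positions count back from the start of the gene. In Hspa5 (chr2:34771890-34772089, plus strand) the element ended at -47, in Pdia6 (chr12:17266389-17266588, plus strand) at -80 and in Dnajc3 (chr14:118937732-118937931, plus strand) at -87.
Hspa5: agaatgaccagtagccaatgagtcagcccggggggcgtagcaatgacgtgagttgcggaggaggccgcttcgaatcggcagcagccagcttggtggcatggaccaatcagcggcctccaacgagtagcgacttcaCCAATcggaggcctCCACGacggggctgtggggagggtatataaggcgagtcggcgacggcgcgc
Pdia6: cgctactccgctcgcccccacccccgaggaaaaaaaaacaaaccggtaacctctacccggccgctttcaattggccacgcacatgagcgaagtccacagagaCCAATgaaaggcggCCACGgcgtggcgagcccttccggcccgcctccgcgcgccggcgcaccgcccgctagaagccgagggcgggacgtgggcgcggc
Dnajc3: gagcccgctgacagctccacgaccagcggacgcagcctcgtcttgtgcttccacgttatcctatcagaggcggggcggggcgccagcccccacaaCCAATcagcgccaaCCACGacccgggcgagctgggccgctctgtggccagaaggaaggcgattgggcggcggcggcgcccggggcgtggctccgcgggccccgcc
In Herpud1 (chr8:94386229-94386428, plus strand) the second form of the ER element ended at -42 and the C/EBP-ATF element, on the opposite strand, at -105.
Herpud1: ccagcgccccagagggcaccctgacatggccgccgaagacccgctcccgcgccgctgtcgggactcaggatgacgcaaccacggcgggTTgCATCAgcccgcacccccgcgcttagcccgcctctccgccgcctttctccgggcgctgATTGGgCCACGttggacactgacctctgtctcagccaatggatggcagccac
In Asns (chr6:7693210-7693409, minus strand) the C/EBP-ATF element was on the strand of the gene and ended at -16. In Chac1 (chr2:119351042-119351241, plus strand) and Aars (chr8:111033642-111033841, plus strand) it lay on the opposite strand and ended at -186 in Chac1 and -105 in Aars.
Asns: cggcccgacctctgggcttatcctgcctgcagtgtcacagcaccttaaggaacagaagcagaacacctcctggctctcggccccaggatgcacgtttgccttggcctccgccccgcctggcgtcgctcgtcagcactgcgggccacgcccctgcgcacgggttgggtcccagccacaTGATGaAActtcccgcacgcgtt
Chac1: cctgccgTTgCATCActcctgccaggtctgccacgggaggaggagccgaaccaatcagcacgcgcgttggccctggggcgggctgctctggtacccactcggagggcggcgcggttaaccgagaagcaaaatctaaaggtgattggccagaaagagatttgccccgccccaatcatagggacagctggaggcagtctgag
Aars: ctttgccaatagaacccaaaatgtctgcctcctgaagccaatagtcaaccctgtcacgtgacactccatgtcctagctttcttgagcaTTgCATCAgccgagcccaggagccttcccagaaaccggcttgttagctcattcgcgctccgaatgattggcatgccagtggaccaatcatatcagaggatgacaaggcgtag

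All values below are log2 of the deposited intensity, and changes are differences of group means on that scale with their standard error. A gene is said to have risen or fallen where its limma adjusted p (Benjamini-Hochberg over the 13190 genes tested) was under 0.05. Arrays of 1 group correlated with each other over the genes tested at r between 0.995 and 0.997, and the known glucocorticoid targets Tsc22d3 and Fkbp5 were 2.24 ± 0.06 and 3.54 ± 0.07 above baseline at 24 h. The arrays carried the macrophage identity of the label: 10 of 10 macrophage markers, such as Csf1r and Adgre1, were above the level of 3.86 that non-mouse control probe sets seldom passed, and 0 of 3 plasma cell markers were. Of the markers of other cell types, 1 of 4 for B cells (Cd79b), 1 of 4 for T cells (Cd3e), 1 of 5 for fibroblasts (Pdgfrb) and 1 of 3 for erythroid cells (Klf1) were above it. Of 5 neutrophil precursor genes 4 were above it, and their summed level ranged from 6.77 to 7.06 at 24 h and from 7.40 to 8.01 at baseline. The summed level of 4 dendritic cell markers, 2 of them above that level, ranged from 5.67 to 5.75 at 24 h and from 6.01 to 6.12 at baseline. The log2 intensity difference between the 3' and 5' control probe sets of Gapdh, a measure of RNA integrity, averaged 0.148 to 0.200 in the treated groups and 0.056 at baseline. The part of these differences in the results that follow was not tested. In such bulk samples, fewer cells of a type and less RNA per cell cannot be told apart.

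Over the 37 genes, changes passed the test from 4 h on. At 1 and 2 h none of the 37 genes passed the test, when 0.387% and 2.15% of all genes did. An unadjusted limma p under 0.05 was found for 0 and 3 of the 37, and for 602 and 1226 of the 13190 genes tested. At 4 h, 3 rose and 2 fell, which is 13.5% of the genes against 7.52% of all genes tested (4.5% higher and 3.03% lower). At 10 h, 3 rose and 4 fell, 18.9% against 14.4% (8.29% higher and 6.16% lower). At 24 h, 4 rose and 5 fell, 24.3% against 12.7% (7.38% higher and 5.34% lower). In all, 15 of the 37 changed at 1 or more times, 40.5% against 20.5% of all genes, and limma's F test over the 5 times called 13, 35.1% against 17.4%. The 4 h count was 3 without baseline replicate 1, without baseline replicate 2 or without 4 h replicate 2, and the 10 h count was 4 without 10 h replicate 3.

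**Figure D1:**
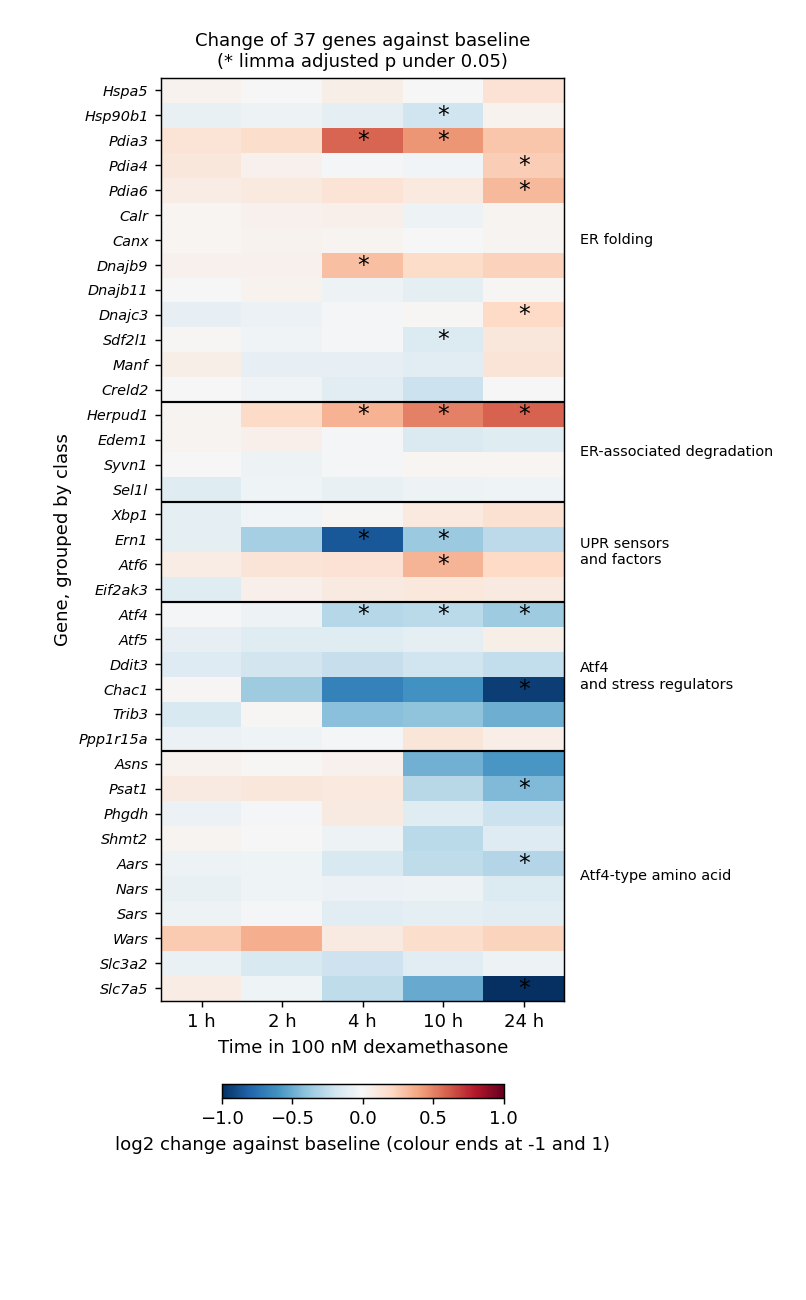
Colour shows the log2 change of each of the 37 genes against baseline at 1, 2, 4, 10 and 24 h (3 arrays per group), with a star where limma's adjusted p was under 0.05. Stars first appear at 4 h, and at 24 h the 4 that rose are ER folding genes and Herpud1, while the 5 that fell are Atf4, Chac1, Psat1, Aars and Slc7a5.

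Among the ER folding genes, the disulfide isomerases Pdia6 and Pdia4 and the co-chaperone Dnajc3 rose at 24 h, by 0.20 to 0.33 on the log2 scale. That is 3 of 13, with none lower, against 7.38% of all genes higher. Of the 13, 12 had a positive change and the median was 0.13, against 0.01 over all genes tested, and in 6 of the 13 every 24 h array was above every baseline array, against 15.3% of all genes. Before that, at 10 h, the chaperone Hsp90b1 and the co-chaperone Sdf2l1 had fallen, and Pdia3 had risen. With the most variable probe set of each gene in place of the brightest, 0 of the 13 passed at 24 h.

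Pdia6, which forms and rearranges disulfide bonds, had log2 intensities of 10.33, 10.27 and 10.24 at baseline, 10.33, 10.45 and 10.29 at 1 h, 10.32, 10.45 and 10.38 at 2 h, 10.47, 10.42 and 10.38 at 4 h, 10.48, 10.34 and 10.32 at 10 h, and 10.65, 10.54 and 10.64 at 24 h. All 3 arrays at 24 h were above every other array. The change at 24 h was 0.33 ± 0.05 (adjusted p = 0.000105), a fold of 1.25. The second probe set averaged 3.95, near the level of the control probe sets, and changed by 0.07; with the mean of both in place of the brighter one, the adjusted p was 0.0988.

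Pdia4, a related isomerase, had log2 intensities of 8.53, 8.51 and 8.65 at baseline, 8.65, 8.72 and 8.66 at 1 h, 8.45, 8.65 and 8.73 at 2 h, 8.55, 8.59 and 8.52 at 4 h, 8.43, 8.47 and 8.72 at 10 h, and 8.84, 8.82 and 8.76 at 24 h. The 24 h arrays were the 3 highest of the 18, and the change at 24 h was 0.24 ± 0.08 (adjusted p = 0.0339). This call was lost without baseline replicate 1 or 2 or without any 1 of the 24 h arrays, with adjusted p between 0.0537 and 0.123.

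Dnajc3, an Hsp40 partner of the Hspa5 chaperone that is also known to inhibit PERK, had log2 intensities of 10.92, 10.92 and 10.85 at baseline, 10.79, 10.81 and 10.85 at 1 h, 10.83, 10.82 and 10.86 at 2 h, 10.86, 10.89 and 10.89 at 4 h, 10.93, 10.89 and 10.92 at 10 h, and 11.15, 11.10 and 11.03 at 24 h. Again the 24 h arrays were the 3 highest of all. The change at 24 h was 0.20 ± 0.04 (adjusted p = 0.00126), and the 4 other probe sets of the gene were higher too, by 0.25 to 0.43.

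Hspa5 (BiP), the main ER chaperone and the usual marker of the response, had log2 intensities of 11.98, 11.94 and 12.01 at baseline, 11.93, 12.02 and 12.07 at 1 h, 11.87, 12.00 and 12.07 at 2 h, 12.06, 12.04 and 12.01 at 4 h, 11.84, 12.00 and 12.07 at 10 h, and 12.11, 12.08 and 12.18 at 24 h. Every 24 h array was above every baseline array, but by little: the change was 0.15 with a 95% interval of 0.04 to 0.26, and it missed the threshold (adjusted p = 0.068). Its second probe set gave a change of 0.15 as well.

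Hsp90b1 (GRP94), the ER member of the Hsp90 family, had log2 intensities of 12.08, 12.01 and 11.98 at baseline, 11.96, 11.98 and 11.91 at 1 h, 12.07, 11.95 and 11.90 at 2 h, 12.01, 11.89 and 11.90 at 4 h, 11.84, 11.84 and 11.79 at 10 h, and 12.16, 12.05 and 11.95 at 24 h. The 3 arrays at 10 h were the lowest of the 18. The change at 10 h was -0.20 ± 0.05 (adjusted p = 0.00649), while its second probe set gave -0.12 at that time, and at 24 h the change was 0.03 (adjusted p = 0.765).

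Sdf2l1, which works with Hspa5 and the co-chaperone Dnajb11, had log2 intensities of 10.13, 10.07 and 10.13 at baseline, 10.11, 10.11 and 10.13 at 1 h, 10.05, 10.06 and 10.11 at 2 h, 10.12, 10.05 and 10.11 at 4 h, 9.89, 10.03 and 9.98 at 10 h, and 10.25, 10.22 and 10.19 at 24 h. It was lowest at 10 h and highest at 24 h, with no overlap of either group with baseline. The fall at 10 h was small, -0.14 ± 0.05 (adjusted p = 0.0419), and was lost without baseline replicate 1 or 3, without 10 h replicate 1 or 3, or without any 1 of the 1 h arrays, with adjusted p between 0.0508 and 0.178. Its 24 h change of 0.11 missed the threshold (adjusted p = 0.113).

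Dnajb9 (ERdj4), an Hsp40 co-chaperone and a target of Xbp1, had log2 intensities of 8.81, 8.86 and 9.01 at baseline, 8.81, 8.94 and 9.05 at 1 h, 8.95, 8.77 and 9.09 at 2 h, 9.13, 9.28 and 9.16 at 4 h, 9.03, 9.13 and 9.07 at 10 h, and 8.97, 9.15 and 9.24 at 24 h. The 4 h arrays were all above the baseline arrays, and the gene rose at 4 h by 0.30 ± 0.08 (adjusted p = 0.0232). Without baseline replicate 1 or 2 or without 4 h replicate 2 the adjusted p was 0.0829 to 0.13, and at 24 h the change of 0.23 missed the threshold (adjusted p = 0.0686).

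Pdia3 (ERp57), the isomerase that works with the lectin chaperones, was read from a single probe set close to the level of the control probe sets, with log2 intensities of 4.10, 3.94 and 3.91 at baseline, 4.03, 4.24 and 4.09 at 1 h, 4.30, 4.02 and 4.17 at 2 h, 4.63, 4.52 and 4.55 at 4 h, 4.50, 4.43 and 4.35 at 10 h, and 4.35, 3.93 and 4.52 at 24 h. It rose at 4 h by 0.58 ± 0.14 (adjusted p = 0.0107) and at 10 h by 0.44 ± 0.14 (adjusted p = 0.0391), with no overlap with baseline at either time. Without 4 h replicate 1 the 4 h adjusted p was 0.0501, and the 10 h call was lost without baseline replicate 2 or 3 or without any 1 of the 10 h arrays, with adjusted p between 0.0556 and 0.125.

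The remaining 5 folding genes passed at no time. For the lectin chaperones, which hold newly made glycoproteins, the 95% intervals at 24 h were -0.06 to 0.11 for Calr and -0.08 to 0.12 for Canx. For the co-chaperone Dnajb11 the interval was -0.12 to 0.14. Manf, a small secreted ER stress protein, had log2 intensities of 10.49, 10.44 and 10.45 at 24 h and 10.37, 10.26 and 10.35 at baseline, without overlap, but its change of 0.13 did not pass (adjusted p = 0.249). Creld2, another small ER stress protein, was lowest at 10 h, where its change was -0.21 (adjusted p = 0.069).

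Over the step from 10 h to 24 h, 4 of the 13 folding genes rose and none fell, when 0.993% of all genes rose, and in 8 of the 13 every 24 h array was above every 10 h array, against 8.01% of all genes. The 4 were Sdf2l1 (0.25 ± 0.05, adjusted p = 0.00232), Hsp90b1 (0.23 ± 0.05, adjusted p = 0.00975), Dnajc3 (0.18 ± 0.04, adjusted p = 0.0127) and Pdia6 (0.23 ± 0.05, adjusted p = 0.0193). They were the only ones among the 37 to pass, 2.16% of all genes having passed in either direction. Without 24 h replicate 1 only Sdf2l1 passed and without 10 h replicate 2 only 2 did. The calls of Pdia6, Dnajc3 and Hsp90b1 were lost without 1 of several single arrays: for Pdia6 10 h replicate 2 or 3 or 24 h replicate 1 or 3 (adjusted p 0.0753 to 0.11), for Dnajc3 10 h replicate 2 or 24 h replicate 1 or 2 (0.0513 to 0.112), and for Hsp90b1 10 h replicate 3 or 24 h replicate 1 (0.0502 to 0.112).

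**Figure D2:**
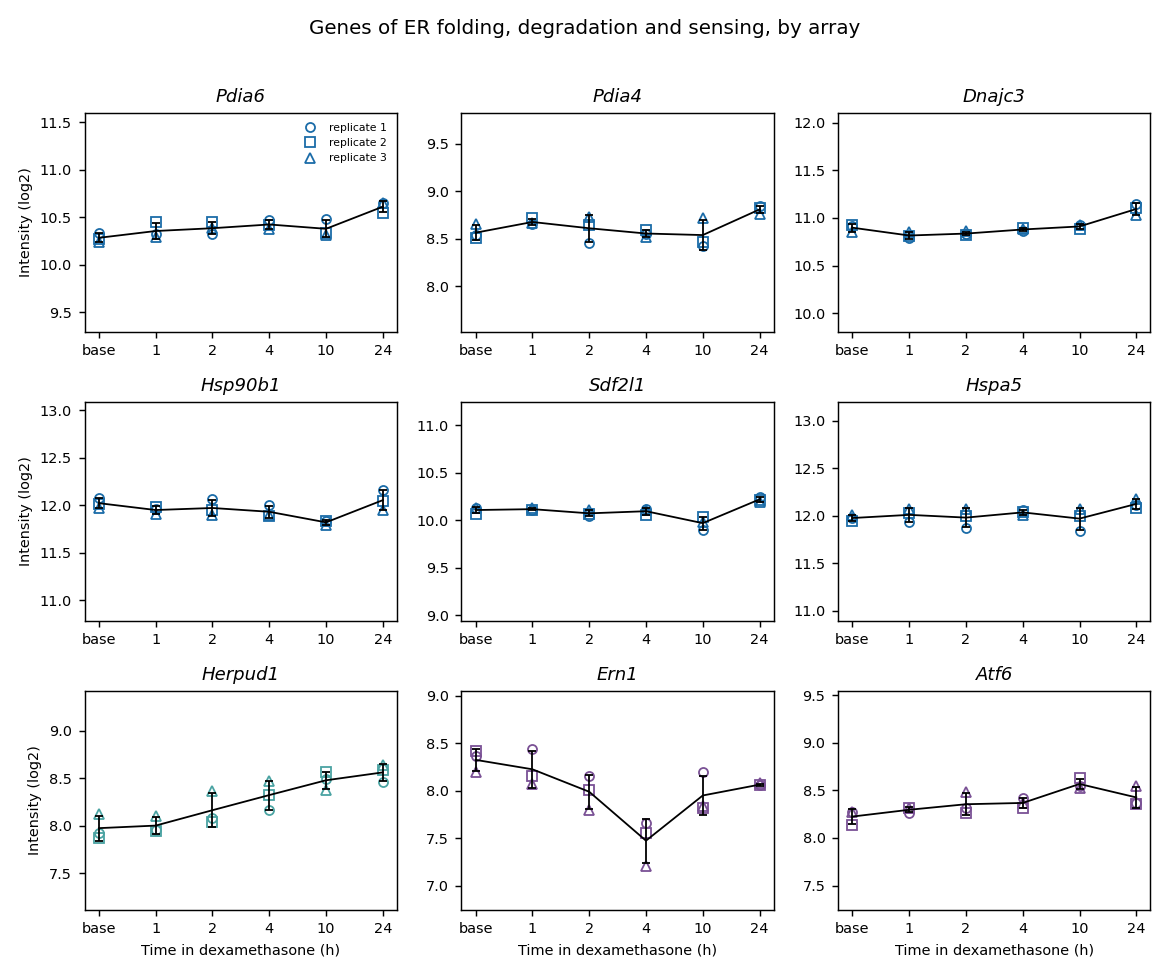
Log2 intensity on each array (open symbols, 1 shape per replicate number) for 9 genes of ER folding, degradation and sensing, by hours in dexamethasone, with the group mean and SD as a black line and bars (n = 3). Every panel spans the same height; Pdia6, Pdia4 and Dnajc3 are highest at 24 h, Hsp90b1 is lowest at 10 h, Herpud1 climbs to 24 h and Ern1 is lowest at 4 h.

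Of the 4 genes of ER-associated degradation, which returns misfolded proteins to the cytosol for breakdown, only Herpud1 passed at any time, 25% against 20.5% of all genes, which is near that background. Herpud1 was also the only one of the 37 to rise at 4, 10 and 24 h. Herpud1, a membrane protein that organises the degradation complex, had log2 intensities of 7.92, 7.87 and 8.12 at baseline, 7.96, 7.94 and 8.10 at 1 h, 8.09, 8.04 and 8.36 at 2 h, 8.17, 8.33 and 8.47 at 4 h, 8.49, 8.56 and 8.38 at 10 h, and 8.46, 8.58 and 8.64 at 24 h. From 4 h on every treated array was above every baseline array. It rose by 0.35 ± 0.09 at 4 h (adjusted p = 0.0187), 0.50 ± 0.09 at 10 h (adjusted p = 0.000374) and 0.59 ± 0.09 at 24 h (adjusted p = 6.43e-05), a fold of 1.5 at the last time. The second probe set gave 0.30, 0.53 and 0.55 at these times. The 4 h call was lost without baseline replicate 1 or 2 or without 4 h replicate 2 or 3, with adjusted p between 0.0614 and 0.129.

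The other 3 degradation genes passed at no time. At 24 h the 95% interval was -0.25 to -0.0027 for Edem1, which picks out mannose-trimmed glycoproteins, -0.13 to 0.17 for the ubiquitin ligase Syvn1 and -0.18 to 0.10 for its partner Sel1l.

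Of the sensors and factors, Ern1 had the largest change, a fall at 4 h, and Atf6 rose at 10 h. Ern1, the splicing sensor, had log2 intensities of 8.36, 8.42 and 8.19 at baseline, 8.44, 8.16 and 8.08 at 1 h, 8.16, 8.01 and 7.80 at 2 h, 7.66, 7.55 and 7.22 at 4 h, 8.19, 7.82 and 7.84 at 10 h, and 8.06, 8.06 and 8.08 at 24 h. At 4 h all 3 arrays lay below every array of the other groups. Its 2 h arrays were already all below the baseline arrays, but the 2 h change of -0.34 ± 0.12 missed the threshold (adjusted p = 0.225). The change was -0.85 ± 0.12 at 4 h (adjusted p = 1.35e-05), a fold of 0.555, and -0.37 ± 0.12 at 10 h (adjusted p = 0.0335).

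At 24 h its arrays were still all lower than those at baseline, but the change of -0.26 missed the threshold (adjusted p = 0.166). The step from 2 h to 4 h was -0.51 ± 0.12 (adjusted p = 0.0202), when 1.9% of all genes passed, and the return from 4 h to 10 h was 0.48 ± 0.12 (adjusted p = 0.0191), when 4.18% did. The 10 h call was lost without baseline replicate 1 or 2 or 10 h replicate 2 or 3 (adjusted p 0.0872 to 0.144), the first step without 2 h replicate 1 or 2 or 4 h replicate 3 (0.078 to 0.148) and the second without 4 h replicate 3 or 10 h replicate 1 (0.131 to 0.132). The 4 other probe sets of Ern1 averaged 3.07 to 3.99, near or below the level of the control probe sets, and with the mean of all 5 no Ern1 call held (adjusted p 0.226 to 0.655).

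Atf6, the sensor that is cut to a transcription factor, had log2 intensities of 8.27, 8.13 and 8.28 at baseline, 8.26, 8.31 and 8.31 at 1 h, 8.32, 8.26 and 8.48 at 2 h, 8.42, 8.32 and 8.36 at 4 h, 8.54, 8.63 and 8.53 at 10 h, and 8.37, 8.36 and 8.55 at 24 h. The 10 h arrays were above all baseline arrays, with a change of 0.34 ± 0.07 (adjusted p = 0.00144). The second probe set gave 0.17 at 10 h, and the 24 h change of 0.20 missed the threshold (adjusted p = 0.0686).

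Xbp1, the factor that Ern1 splices, had log2 intensities of 11.40, 11.52 and 11.71 at baseline, 11.44, 11.38 and 11.51 at 1 h, 11.57, 11.37 and 11.59 at 2 h, 11.46, 11.49 and 11.71 at 4 h, 11.74, 11.56 and 11.61 at 10 h, and 11.74, 11.59 and 11.74 at 24 h. The groups overlapped at every time. Its 24 h change was 0.15, with a 95% interval of -0.0039 to 0.30 (adjusted p = 0.216). The other probe sets of Xbp1 gave 0.26, 0.20 and 0.09 at 24 h, the last of them averaging 4.56. Splicing of Xbp1 was not measured. Eif2ak3, the kinase of eIF2alpha, had a 24 h interval of -0.07 to 0.25.

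Atf4 fell from 4 h on, and Chac1 fell at 24 h. At 24 h 2 of the 6 genes of this class had fallen and none had risen, against 5.34% of all genes lower. The class median was -0.30, against 0.01 over all genes tested.

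Atf4, the transcription factor at the head of the amino acid response, had log2 intensities of 11.19, 11.03 and 11.24 at baseline, 11.19, 11.01 and 11.19 at 1 h, 11.20, 11.02 and 11.09 at 2 h, 10.86, 10.80 and 10.93 at 4 h, 11.01, 10.83 and 10.80 at 10 h, and 10.78, 10.87 and 10.74 at 24 h. At 4, 10 and 24 h every array was below every baseline array. The change was -0.29 ± 0.06 at 4 h (adjusted p = 0.0042), -0.27 ± 0.06 at 10 h (adjusted p = 0.00421) and -0.35 ± 0.06 at 24 h (adjusted p = 0.000313), a fold of 0.782 at the last time. A second probe set averaged 3.23, below the level of the control probe sets, and with the mean of both in place of the brighter one the call was lost at all 3 times (adjusted p 0.118 to 0.303). Atf4 is known to be set largely by translation, which these arrays do not read.

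Chac1, which degrades glutathione and is a target of Atf4, had log2 intensities of 6.03, 5.72 and 5.70 at baseline, 6.11, 5.29 and 6.09 at 1 h, 5.61, 4.85 and 5.93 at 2 h, 5.14, 4.99 and 5.30 at 4 h, 5.59, 5.28 and 4.78 at 10 h, and 4.78, 4.77 and 5.09 at 24 h. Its treated arrays were spread widely at 1, 2 and 10 h. At 24 h all 3 were low, between 4.77 and 5.09, and the change was -0.94 ± 0.24 (adjusted p = 0.0084), a fold of 0.521. The 4 h change of -0.68 missed the threshold (adjusted p = 0.096).

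Ddit3 (CHOP), the factor linked to cell death under prolonged stress, had log2 intensities of 9.04, 9.04 and 9.00 at baseline, 8.84, 9.02 and 8.84 at 1 h, 8.76, 8.94 and 8.82 at 2 h, 8.78, 8.93 and 8.69 at 4 h, 8.81, 9.01 and 8.66 at 10 h, and 8.65, 9.05 and 8.65 at 24 h. On replicate 2 it stayed between 8.93 and 9.05 in all 6 groups, while replicates 1 and 3 were at 8.65 at 24 h. The 24 h change of -0.24 did not pass (adjusted p = 0.0978).

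Trib3, a pseudokinase induced by Atf4 and Ddit3, had log2 intensities of 4.37, 4.40 and 4.32 at 24 h and 5.17, 4.60 and 4.78 at baseline, without overlap. Its change of -0.49 ± 0.17 narrowly missed the threshold (adjusted p = 0.0547). Ppp1r15a (GADD34), which brings a phosphatase to eIF2alpha, had a 24 h interval of -0.38 to 0.51, and Atf5, a relative of Atf4, one of -0.15 to 0.27. Both intervals include 0, and both are wider than those of the folding genes other than Pdia3.

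Among the amino acid genes, the transporter Slc7a5, the serine enzyme Psat1 and the tRNA synthetase Aars fell at 24 h. That is 3 of 10 lower and none higher, against 5.34% of all genes lower. Of the 10, 9 had a negative change, with a median of -0.18 against 0.01 over all genes tested, and in 5 every 24 h array was below every baseline array, against 12.6% of all genes. The count of 3 was 1 without baseline replicate 3 or without 24 h replicate 2.

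Slc7a5 (LAT1), the importer of large neutral amino acids such as leucine, had log2 intensities of 6.65, 6.33 and 6.83 at baseline, 6.62, 6.32 and 7.10 at 1 h, 6.57, 6.08 and 7.03 at 2 h, 6.15, 6.07 and 6.82 at 4 h, 6.27, 5.82 and 6.22 at 10 h, and 5.50, 5.58 and 5.60 at 24 h. The 24 h arrays were the 3 lowest of the 18 and lay within 0.10 of each other, while the baseline arrays spanned 0.49. The change was -1.04 ± 0.22 (adjusted p = 0.00137), a fold of 0.485 and the largest among the 37 genes at any time. Its partner Slc3a2, the heavy chain with which it forms the transporter, had log2 intensities of 10.11, 10.10 and 9.96 at 24 h and 10.16, 10.17 and 10.01 at baseline. The 95% interval of the 24 h change was -1.49 to -0.60 for Slc7a5 and -0.20 to 0.09 for Slc3a2; the difference between the 2 genes was not tested.

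Psat1, which makes phosphoserine on the way to serine, had log2 intensities of 8.36, 8.02 and 8.44 at baseline, 8.42, 8.18 and 8.48 at 1 h, 8.44, 8.22 and 8.49 at 2 h, 8.37, 8.22 and 8.51 at 4 h, 8.05, 7.82 and 8.11 at 10 h, and 7.84, 7.69 and 7.97 at 24 h. At 24 h all 3 arrays were below all baseline arrays. The change was -0.44 ± 0.11 (adjusted p = 0.00792), and it was lost without baseline replicate 3 or 24 h replicate 2 (adjusted p 0.0541 to 0.0614).

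Asns, asparagine synthetase and a textbook Atf4 target, had log2 intensities of 8.88, 8.43 and 9.18 at baseline, 8.95, 8.41 and 9.23 at 1 h, 8.94, 8.35 and 9.25 at 2 h, 8.70, 8.66 and 9.25 at 4 h, 8.49, 8.08 and 8.48 at 10 h, and 8.25, 8.11 and 8.39 at 24 h. Through 4 h the groups overlapped, and at 24 h all 3 were below the lowest baseline array. The change of -0.58 ± 0.21 was larger than that of Psat1, but its standard error was larger and it missed the threshold (adjusted p = 0.0673). Replicate 2 was the lowest array in 6 of 6 groups. With a block for the replicate number the limma adjusted p of Asns was 0.000207 at 10 h and 1.41e-05 at 24 h. The labels do not say what the numbers mark, so the main fit has no block.

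Aars, the alanyl-tRNA synthetase, had log2 intensities of 9.41, 9.27 and 9.46 at baseline, 9.41, 9.12 and 9.46 at 1 h, 9.38, 9.16 and 9.47 at 2 h, 9.23, 9.05 and 9.38 at 4 h, 9.23, 9.06 and 9.09 at 10 h, and 9.06, 9.04 and 9.15 at 24 h. The 24 h arrays were all below the baseline arrays, with a change of -0.29 ± 0.09 (adjusted p = 0.0308), and the second probe set gave -0.21. The call was lost without baseline replicate 1 or 3 or 24 h replicate 1 or 2, with adjusted p between 0.08 and 0.128.

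The remaining amino acid genes passed at no time. For the other serine and one-carbon enzymes the 95% intervals at 24 h were -0.55 to 0.12 for Phgdh, the first enzyme of serine synthesis, whose second probe set changed by 0.07, and -0.51 to 0.25 for Shmt2, the mitochondrial serine hydroxymethyltransferase. Among the synthetases, the intervals were -0.28 to 0.0038 for Nars (asparagine) and -0.25 to 0.02 for Sars (serine). Wars (tryptophan) was the 1 gene of the class with a positive 24 h change, 0.22 (adjusted p = 0.355), with its other probe sets at -0.04 and 0.02; it is also known as a gene induced by interferon.

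**Figure D3:**
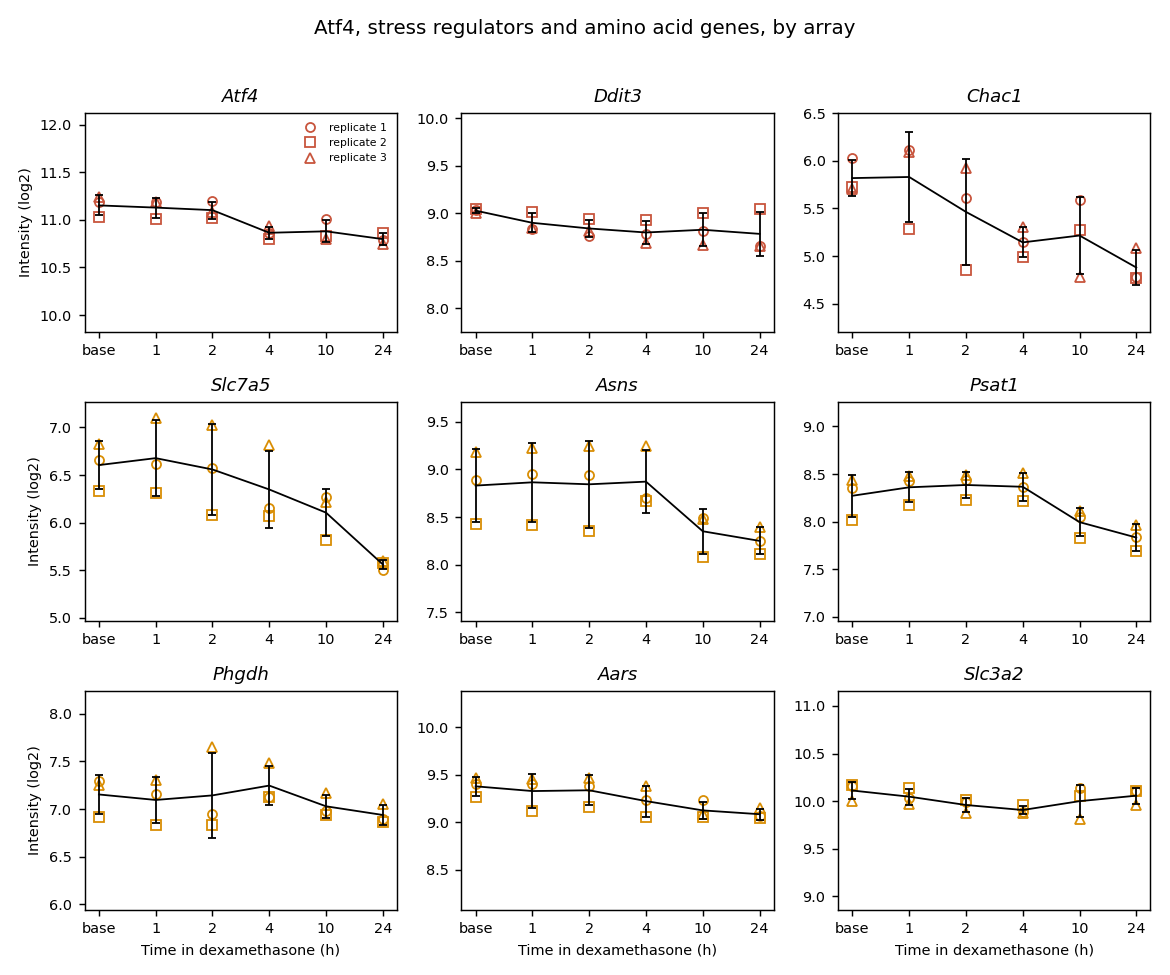
Log2 intensity on each array (open symbols, 1 shape per replicate number) for Atf4, 2 stress regulators and 6 amino acid genes, by hours in dexamethasone, with the group mean and SD as a black line and bars (n = 3). Every panel spans the same height; Atf4 steps down at 4 h, Slc7a5, Asns and Psat1 are lowest at 24 h, and replicate 2 is the lowest array of Asns and Psat1 in all 6 groups.

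The folding genes and the amino acid genes were set side by side at each time. The median change of the folding genes minus that of the amino acid genes was 0.03 at 1 h, 0.05 at 2 h, 0.05 at 4 h, 0.16 at 10 h and 0.31 at 24 h. On single arrays the same difference, taken from each gene's baseline mean, was 0.35, 0.35 and 0.32 at 24 h and -0.03, 0.05 and -0.07 at baseline. The baseline arrays are centred by construction, and the 24 h arrays share the error of the baseline means. Between single arrays of a group, the SD of the difference between the classes was 0.13. The differences of class medians at 10 and 24 h, which rest on group means, were more than that and those at 1, 2 and 4 h were less. Single arrays gave -0.02, 0.27 and -0.08 at 1 h and -0.04, 0.23 and -0.13 at 2 h. They gave 0.09, 0.19 and -0.05 at 4 h and 0.08, 0.19 and 0.21 at 10 h, so the 10 h arrays lay within the range of earlier ones. Without 1 h replicate 2 the 1 h difference was -0.10 and without 2 h replicate 2 the 2 h difference was -0.13, so neither has a settled sign. Leaving out any 1 array kept the 10 h difference between 0.09 and 0.22 and the 24 h difference between 0.29 and 0.37. At 10 h the class medians were -0.03 for the folding genes and -0.19 for the amino acid genes, and at 24 h they were 0.13 and -0.18. The genes of a class share arrays and regulation and are not replicates, and the members were chosen with results known, so no p is given. The median over all 13190 genes lay between 0.00 and 0.01 at all 5 times.

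**Figure D4:**
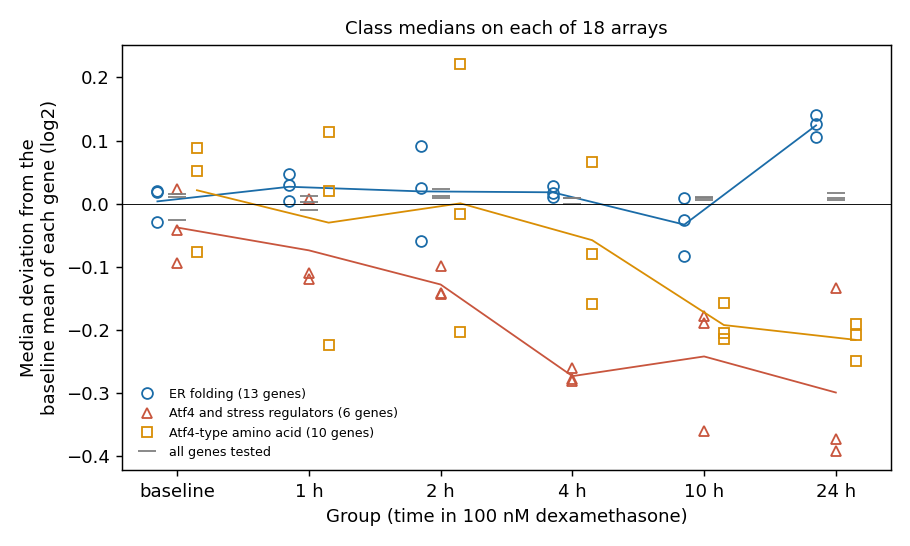
Each symbol is the median, over the genes of a class, of the log2 deviation from each gene's baseline mean on 1 of the 18 arrays, by group; lines join the group means and grey bars show all genes tested. The ER folding symbols lie above 0 at 24 h on all 3 arrays and the amino acid symbols lie between -0.25 and -0.19, while before 10 h the amino acid symbols of a group are spread on both sides of 0.

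The direction of the smaller changes depends on what is taken as the centre of an array. With every array instead centred on the median of its log2 values over the 13190 genes tested, all treated groups shift down against baseline, by 0.12 at 24 h, and 2 of the 37 genes rose and 12 fell at 24 h, against 4 and 5. Over all genes the split at 24 h was then 496 higher and 1912 lower, against 973 and 705, at 10 h 576 and 2050 against 1093 and 812, and at 4 h 363 and 879 against 593 and 399. On that scale the median of the folding genes at 24 h was 0.01, the rises of Pdia4 and Dnajc3 were lost and those of Pdia6 and Herpud1 passed; lost too were the rises of Dnajb9 and Herpud1 at 4 h and of Pdia3 and Atf6 at 10 h, while the falls of Atf4, Chac1, Psat1, Aars and Slc7a5 passed. The counts of falls were then 5 of 13 folding genes at 10 h, against 15.5% of all genes, and at 24 h 4 of the 6 genes for Atf4 and stress regulators and 6 of 10 amino acid genes, against 14.5%. The other centre, the median deviation of the genes from their own means, was added after seeing the data and moved by only 0.01 at 24 h. With arrays centred on it, the rise of Pdia4 at 24 h was the only call lost among the 37 genes. The difference between the 2 classes does not depend on the centre.

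Other genes of the same pathways were read from lists that leave out the 38. Of the 17 genes named from them, 7 kept their call in all 30 other settings tried: Spcs2, Ddit4, Jdp2, Klhl24, Atf3, Slc7a8 and Slc36a1. Of 22 other ER folding and translocation genes 5 fell at 10 h and none rose, against 6.16% of all genes lower. None of the 22 passed at 24 h, when 12.7% of all genes did. Among the 5 were the chaperone Hyou1 (-0.26 ± 0.07, adjusted p = 0.0135), the signal peptidase subunit Spcs2 (-0.23 ± 0.05, adjusted p = 0.000763), the peptidyl-prolyl isomerase Fkbp2 (-0.19 ± 0.06, adjusted p = 0.0447) and the translocon subunit Sec61a1 (-0.18 ± 0.06, adjusted p = 0.036). The count of 5 was 2 without baseline replicate 1 or 3, and 3 without baseline replicate 2, any 1 of the 1 h or 4 h arrays, 2 h replicate 3 or 24 h replicate 2 or 3; with arrays centred on their medians it was 10. It was 1 with the most variable probe set of each gene, with the mean of its probe sets or with only the groups compared fitted, and 2 without the intensity trend. Hyou1 was lost without 10 h replicate 1 and Sec61a1 without that array or any 1 baseline array; both were also lost with either other probe set rule and with only the groups compared, and Sec61a1 without the trend, with adjusted p up to 0.43 for Hyou1 and 0.635 for Sec61a1, and Fkbp2 in 20 of the 30 other settings. Of 11 other degradation genes none passed at 24 h, when 12.7% of all genes did, and 9.09% passed at 10 h, against 14.4%. Erlec1, a lectin of the same pathway, passed at 10 h (0.20 ± 0.07, adjusted p = 0.0487). That call was kept in 8 of the 30 other settings, lost in 21 and reversed in direction in 1. Of 15 other regulators of the unfolded protein response 6.67% passed at 24 h, under the 12.7% of all genes. Only Eif2ak4, the amino acid sensing kinase, did, and it was lower (-0.36 ± 0.11, adjusted p = 0.0271). That call was lost without baseline replicate 2 or 3 or 24 h replicate 1 or 3.

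In the wider list of Atf4 targets and stress response genes, most of those that passed rose. Of its 13 tested genes 6 rose and 1 fell at 24 h, 53.8% against 12.7% of all genes, and 3 rose with arrays centred on their medians. The mTOR inhibitor Ddit4, a known direct glucocorticoid target, was between 7.98 and 8.68 at 24 h and between 4.28 and 5.32 at baseline (3.52 ± 0.19, adjusted p = 5.2e-13). The AP-1 family repressor Jdp2 (2.24 ± 0.07, adjusted p = 1.16e-17) and Klhl24 (0.72 ± 0.13, adjusted p = 0.000365) were higher too, and the stress factor Atf3 was lower (-0.51 ± 0.11, adjusted p = 0.00212).

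Among amino acid genes outside the 38, several transporters rose. Of 12 other transporters 4 rose at 24 h and none fell, against 7.38% of all genes higher. They were Slc7a7, a cationic amino acid exchanger (0.89 ± 0.21, adjusted p = 0.00563), Slc7a2, an arginine importer read close to the control level, with its lowest baseline array at 3.50 (0.80 ± 0.19, adjusted p = 0.00593), Slc7a8 (LAT2), a relative of Slc7a5 (0.61 ± 0.13, adjusted p = 0.00153), and the lysosomal Slc36a1 (0.43 ± 0.10, adjusted p = 0.00484). The call of Slc7a7 was lost without baseline replicate 3 and that of Slc7a2 without baseline replicate 1 or 24 h replicate 1. Slc7a7 and Slc7a8 pair with the same heavy chain Slc3a2 as Slc7a5 does. Of 13 other tRNA synthetases none passed at 24 h, when 12.7% of all genes did. At 10 h 7.69% passed, against 14.4% of all genes. Yars was lower at 10 h (-0.35 ± 0.11, adjusted p = 0.0346), a call lost without baseline replicate 1 or 3 or 10 h replicate 2 or 3. With arrays centred on their medians 6 of the 13 were lower at 24 h, against 14.5% of all genes on that scale. Of 9 other synthesis genes 22.2% passed at 24 h, against 12.7% of all genes. The cytosolic Shmt1 was higher (0.59 ± 0.17, adjusted p = 0.0212) and the mitochondrial Mthfd1l lower (-0.28 ± 0.09, adjusted p = 0.0344). The first was lost without baseline replicate 3 or 24 h replicate 3, and the second without baseline replicate 1 or 3 or 24 h replicate 2 or 3.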

How the data were processed

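RNA from 18 cultures was hybridised to Affymetrix arrays. The deposited values are linear intensities of probe sets; the authors used RMA in affy, per the submitters' processing notes, in versions not given in the sources used here. RMA makes array distributions alike and so hides any change that most genes share. The deposited intensities ran from 5.37 to 15224, and log2 was taken here. An evenly stepped run of 211 probe sets in baseline replicate 1 was left out; it held none of the 38 genes. Of 45141 probe sets, 28898 had 1 gene symbol in the platform annotation used. The brightest probe set stood for a gene. Genes at or above the 40th percentile of an array on 3 or more arrays were tested, 13190 of 17020. Means of the 6 groups were fitted in limma 3.58.1 (R 4.3.3; eBayes with an intensity trend), two-sided, with Benjamini-Hochberg adjustment within each comparison; the fit was tested on simulated data. Promoters came from RefSeq.

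The members and lists were chosen with earlier results of these data known. All members could be named, with every array's value for those that passed at any time or that define a class; from each list, at most 4 passing genes with the largest change at 24 h, or at 10 h where none passed at 24 h. Alternatives covered the filter, the probe set rule, an added offset, the trend, the groups fitted, the replicate number as a block, each array left out, the evenly stepped run kept or taken as missing, centring on array medians and, added after seeing the data, centring on the median deviation of the genes. The number of arrays limits the precision.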

Additional observations from a re-analysis of the deposited data

How the results depend on the processing

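Of the 27 changes called among the 37 genes, none changed direction under any of the 30 other settings; Herpud1 at 10 and 24 h, Chac1 and Slc7a5 at 24 h and the step of Sdf2l1 from 10 h to 24 h kept their call under every one. Of 810 pairs of a called change and a setting, 98 lost the call; in the setting chosen after seeing the data, centring on the median gene deviation, Pdia4 at 24 h did (limma adjusted p = 0.0522). With a block for the replicate number, the number of the 37 genes called was 1 at 2 h, 8 at 4 h, 16 at 10 h and 17 at 24 h. It was 3 from 2 h to 4 h, 3 from 4 h to 10 h, 8 from 10 h to 24 h and 23 by the F test. Asns passed at 10 h (limma adjusted p = 0.000207) and 24 h (1.41e-05). Also gained at 24 h were Ddit3 (limma adjusted p = 0.00659), Hspa5 (0.0125), Dnajb9 (0.0147) and Trib3 (0.0237). Ern1 (0.0276), Atf6 (0.0364) and Nars (0.0499) were gained there too, and the gene gained at 2 h was Ern1 (0.0151). Over all genes the count was 93 at 1 h (51 without the block), 432 at 2 h (283), and 500, 945 and 547 over the last 3 steps (251, 551 and 285). At 4, 10 and 24 h the all-gene count without the block was 992, 1905 and 1678. With the block it stayed within a factor of 1.5 of these. No F test count over all genes was taken with the block. The replicate numbers were not taken as pairs, since the labels tie them to no mouse. Same-numbered arrays deviated together with r from 0.024 to 0.290, not all above 0.1. Each of the 18 arrays correlated best with its own number, a hint from the data and not from the design. With the probe set of largest variance the count was 5 at 24 h and 2 from 10 h to 24 h (all genes 142, 359 and 172 over the last 3 steps). With that probe set Erlec1 at 10 h changed direction, to -0.11, and did not pass. With the mean of all probe sets it was 2 at 4 h and 0 from 2 h to 4 h and from 4 h to 10 h (all genes 157 from 2 h to 4 h). Without the intensity trend it was 3 at 4 h, 4 at 10 h, 0 from 2 h to 4 h and from 4 h to 10 h, and 1 from 10 h to 24 h (all genes 129, 321 and 124 over the last 3 steps). With only the groups compared it was 2 from 2 h to 4 h, 0 from 4 h to 10 h and 2 from 10 h to 24 h (all genes 1257 at 10 h, 344 from 4 h to 10 h and 176 from 10 h to 24 h), and the F test over all times has no such setting. With arrays centred on their medians it was 1 at 2 h, 8 at 4 h, 17 at 10 h, 14 at 24 h and 2 from 10 h to 24 h. Leaving out 1 array gave 3 to 6 at 4 h, 4 to 9 at 10 h, 7 to 12 at 24 h, 0 to 2 from 2 h to 4 h and from 4 h to 10 h, 1 to 6 from 10 h to 24 h and 10 to 17 by the F test, and over all genes 90 to 164, 137 to 283, 316 to 585 and 145 to 314 over the 4 steps. The class difference ranged from -0.102 to 0.118 at 1 h and from -0.131 to 0.0972 at 2 h. The cause of these differences was not tested. Probe sets near the control level, as for Pdia3 and Trib3, limit what their changes show.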

Other observations

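A pattern chosen after its values were seen concerns the replicate numbers. For Asns, Psat1, Phgdh and Aars, array 2 was the lowest of its group in 6 of 6 groups, and for Slc7a5 in 5 of 6. For Ddit3 and Ppp1r15a array 2 was the highest in 6 of 6, and for Slc3a2 array 3 was the lowest in 6 of 6. The lowest array had the same number in all 6 groups in 5 of the 10 amino acid genes, against 3.41% of all genes tested, and in 0 of the 6 stress regulators. The highest array had the same number in 2 of those 6, against 3.03% of all genes. The labels do not say whether a number marks a mouse.

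The spread of some amino acid genes was narrower at 24 h. The 3 arrays of Slc7a5 had an SD of 0.05 at 24 h and a pooled SD of 0.37 over baseline to 10 h. For Asns the SDs were 0.14 and 0.37, and for Phgdh 0.10 and 0.27. Shmt2, with 0.31 and 0.25, and Wars, with 0.18 and 0.16, went the other way in the same class. The median SD over all genes was 0.10 at 24 h and 0.14 over the earlier groups. These are unlike measures, since the first is from 3 arrays and the second is pooled over groups. At equal spread the median of the first kind is the lower, so the gap does not show a narrower spread over all genes. For Ddit3 and Ppp1r15a the order was the other way too, with 0.23 and 0.55 at 24 h against 0.11 and 0.28 over the earlier groups. With 3 arrays at 24 h these SDs are imprecise, and their difference was not tested.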
